A study of Mus musculus with 30 samples.

Results

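The genes of RANKL (Tnfsf11), its receptor RANK (Tnfrsf11a), the decoy receptor osteoprotegerin (Tnfrsf11b), macrophage colony-stimulating factor (Csf1) and the receptor of that factor (Csf1r) were followed in regenerating mouse digits over 9 time points. They were chosen by gene symbol as the ligands, the decoy and the receptors that control the formation of osteoclasts, and are 5 of the 20321 genes in the tables. All 5 passed the filter on low counts, which kept 13793 genes for testing. Adult male C57Bl/6 mice aged 9 to 10 weeks had at most 33% of the distal phalanx (P3) of hindlimb digit 3 removed, a level at which the digit tip grows back. Digits of 3 mice were collected per time point, at 0 h as the reference and then at 3 h, 6 h, 12 h and 24 h and after 3 d, 14 d and 21 d, and 6 mice were taken at 7 d. The labels name no transgene and no agent, and a library of 0 h and a library of 12 h carry the same animal code, foot and date in their titles. At 7 d, 3 of the 6 digits were from the left foot, and all other digits of the series were from the right foot.

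Osteoclasts are the cells that resorb bone, and they form by fusion of precursors of the monocyte and macrophage lineage. CSF1 binds its receptor CSF1R, a tyrosine kinase, and keeps these precursors alive and dividing. RANKL, made by osteoblast-lineage cells, fibroblasts and some lymphocytes, binds RANK on the precursors and drives their differentiation through NF-kB, c-Fos and NFATc1. Osteoprotegerin is a secreted receptor without a membrane anchor that binds RANKL and keeps it from RANK, so the balance of the ligand and the decoy is commonly read as a ratio. Regrowth of the mouse digit tip is known to pass through a phase of bone resorption by osteoclasts before new bone is laid down.

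In GRCm38, Tnfsf11 (ENSMUSG00000022015) lies at chr14:78277445-78308043 on the minus strand, Tnfrsf11b (ENSMUSG00000063727) at chr15:54250619-54278484 on the minus strand, Tnfrsf11a (ENSMUSG00000026321) at chr1:105780718-105847981 on the plus strand and Csf1 (ENSMUSG00000014599) at chr3:107741048-107760469 on the minus strand. Csf1r was left out of the promoter search, and of the other genes 3 matched an entry of the RefSeq promoter table (GRCm38.p6). The 250 bases before the start of the 2 ligand genes are shown, because every mouse at 6 h already had more of both RNAs than every mouse at 0 h. Both are written 5′ to 3′ on the strand of the gene, chr14:78308044-78308293 (minus) for Tnfsf11 and chr3:107760470-107760719 (minus) for Csf1, and capitals mark the match to a searched motif.
Tnfsf11: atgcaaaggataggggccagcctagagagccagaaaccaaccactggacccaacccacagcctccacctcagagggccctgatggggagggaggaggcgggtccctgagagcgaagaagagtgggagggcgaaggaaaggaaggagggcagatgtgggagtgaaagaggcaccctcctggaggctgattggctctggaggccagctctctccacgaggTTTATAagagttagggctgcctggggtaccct
Csf1: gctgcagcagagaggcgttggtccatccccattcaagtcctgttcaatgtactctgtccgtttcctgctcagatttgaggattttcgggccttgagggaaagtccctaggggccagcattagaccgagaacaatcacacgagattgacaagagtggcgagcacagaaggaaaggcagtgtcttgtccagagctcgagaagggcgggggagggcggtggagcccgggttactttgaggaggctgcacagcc
The windows were searched on both strands for the core promoter motif TATAAA, the AP-1 motif TGANTCA, the RUNX motif TGTGGT and the PU.1 motif GAGGAA, and no match overlapped another. The Tnfsf11 window held TATAAA on the other strand, at positions -32 to -27 from the start, written as TTTATA in the run above. Neither the Csf1 window nor that of Tnfrsf11a held any of the 4 motifs. Among 32851 promoters of this length in the table, 12.4% held TATAAA, 6.75% the AP-1 letters, 14.0% the RUNX letters and 23.3% the PU.1 letters. GC content was 60.4% for Tnfsf11, 56.4% for Csf1 and 73.6% for Tnfrsf11a.

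The depth per library, as the sum of expected counts (reads that RSEM assigned to genes), lay between 3167625 and 16277816 (median 6103688). The titles carry dates, of July to August 2015 for 16 mice (called earlier-dated here) and of November 2015 to the following January for 14 mice (later-dated), and what a date marks is not given in the sources used here. All mice at 3 h and 12 h were earlier-dated and all at 21 d later-dated. At these times date and time after amputation cannot be told apart. Median depth was 5083528 in the earlier-dated and 9836324 in the later-dated libraries, so depth also differed by date. Summed markers of keratinocytes (24961 to 74966 TPM, a level corrected for transcript length and scaled to the same total in each mouse), fibroblasts and bone cells were present in every mouse of this digit tissue, whereas 7 T and B cell markers summed to between 0.13 and 7.40 TPM. In such bulk RNA, fewer cells of a type and less RNA per cell cannot be told apart.

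Over the time course, 4 of the 5 genes changed and osteoprotegerin was not called. By edgeR's quasi-likelihood F-test over the 9 time points, with Benjamini-Hochberg adjustment over all genes tested, the adjusted p was 0.000284 for Tnfsf11, 0.000277 for Tnfrsf11a, 0.00105 for Csf1r, 0.0197 for Csf1 and 0.824 for Tnfrsf11b. Of all genes tested, 9.01% passed this threshold of 0.05. RANKL RNA was higher than at 0 h from 24 h to 21 d, with the widest range of mean levels of the 5 genes (26.2 times from lowest to highest). Csf1 had a range of 2.45 times, with its highest means from 6 h to 3 d, and both receptors had their highest means at 3 d and 7 d.

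**Figure D1:**
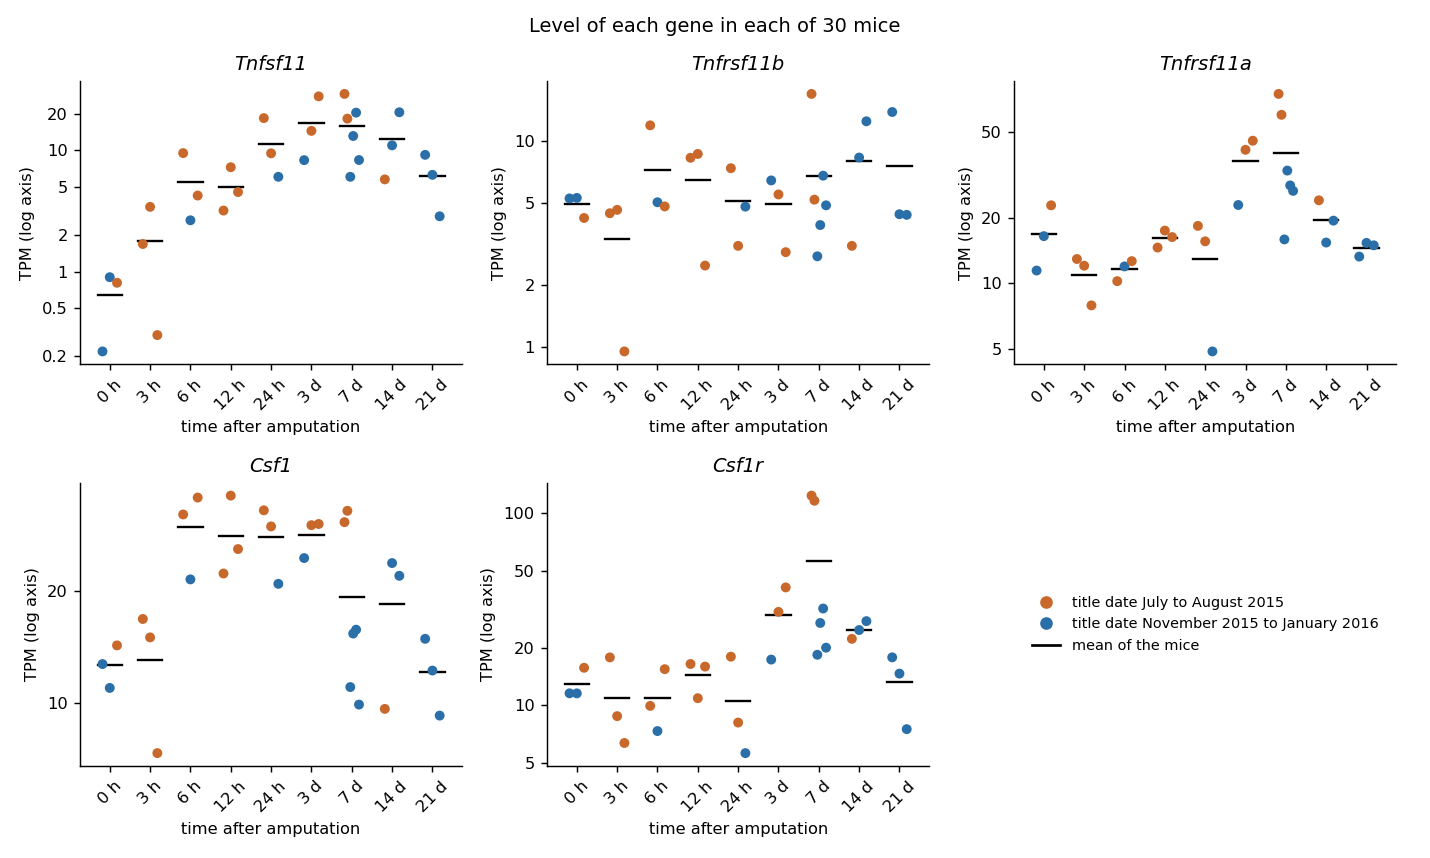
TPM (log axis) of the 5 genes in each of 30 mice by time after amputation, with black bars for the mean of the mice and colours for the dates in the sample titles. Mean Tnfsf11 rose from 0.643 TPM at 0 h to 16.9 TPM at 3 d, and the 2 earlier-dated mice at 7 d were the highest of all mice for both receptors.

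RANKL RNA was scarce in the digits collected at 0 h. Tnfsf11 was at 0.22, 0.90 and 0.81 TPM in the 3 mice at 0 h, from 3, 9 and 5 counts. At 3 h it was at 1.69, 3.42 and 0.30 TPM, the last of these from a single count in the shallowest library of the series, with 2 of 3 mice above every mouse at 0 h. At 6 h the mice had 9.49, 2.65 and 4.24 TPM. At 12 h they had 3.19, 7.26 and 4.53 TPM, so that all 6 mice of these times lay above the highest mouse at 0 h. The values at 24 h were 18.4, 9.45 and 6.05 TPM and those at 3 d were 8.30, 14.5 and 27.9 TPM. At 7 d the lowest mouse had 6.05, the median was 15.7 and the highest mouse had 29.2 TPM. None of these 12 mice overlapped with the mice at 0 h. At 14 d the level was 5.76, 11.0 and 20.6 TPM, and at 21 d it was 9.18, 6.28 and 2.86 TPM, again above every mouse at 0 h in all 6 mice.

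In the fit, Tnfsf11 was higher than at 0 h by a log2 fold change of 4.21 at 24 h (SE 0.72, adjusted p = 0.00250), 4.62 at 3 d (SE 0.73, adjusted p = 0.000760) and 4.61 at 7 d (SE 0.69, adjusted p = 0.000155). At 14 d the change was 4.29 (SE 0.72, adjusted p = 0.000734) and at 21 d 3.41 (SE 0.71, adjusted p = 0.00573). Among all genes tested, the share called higher was 0.406% at 24 h, 0.486% at 3 d, 1.68% at 7 d, 1.48% at 14 d and 1.73% at 21 d. The earlier log2 fold changes of 1.71 at 3 h (SE 0.78, adjusted p = 0.418), 3.06 at 6 h (SE 0.72, adjusted p = 0.0791) and 2.84 at 12 h (SE 0.72, adjusted p = 0.151) did not pass, at times when 0.138%, 0.138% and 0.116% of genes were called higher. DESeq2 called 6 h (adjusted p = 0.00337) and 12 h (adjusted p = 0.0114). The reference rests on 17 counts in all. Without the 0 h mouse with 3 counts, the adjusted p was 0.0557 at 24 h, with a log2 fold change of 3.73, and 0.0883 at 21 d, with 2.93. Without the highest mouse at 21 d it was 0.0575 at that time, with 2.95.

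Neighbours in the order of mean Tnfsf11 level could not be separated. The order of mean TPM ran from 0 h (0.643 ± 0.369, SD, n = 3) through 3 h (1.80 ± 1.56), 12 h (4.99 ± 2.07), 6 h (5.46 ± 3.58), 21 d (6.11 ± 3.16), 24 h (11.3 ± 6.40), 14 d (12.4 ± 7.52) and 7 d (15.9 ± 8.54, n = 6) to 3 d (16.9 ± 9.99). The ranges of the mice overlapped in all 8 neighbouring pairs. Within the earlier-dated mice, mean log2(CPM + 1), where CPM are expected counts scaled to library size by TMM, was higher than in the single 0 h mouse by 2.95 at 24 h, 3.49 at 3 d and 3.58 at 7 d. Within the later-dated mice the differences from 2 mice at 0 h were 2.63, 2.62 and 3.08, with every mouse above both of them.

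Osteoprotegerin RNA was not called at any time, by edgeR or by DESeq2, and none of the 8 comparisons with 0 h had an unadjusted p under 0.05 in edgeR. Tnfrsf11b was at 5.25, 5.28 and 4.22 TPM at 0 h and at 4.45, 4.62 and 0.95 TPM at 3 h, the last again from the shallowest library, with 4 counts. At 24 h the mice had 7.36, 3.09 and 4.79 TPM and at 3 d 6.42, 5.49 and 2.88 TPM. At 7 d the values ran from 2.75 over a median of 5.02 to 16.9 TPM. Mice below and above all 0 h mice were present at each of these last times, so the groups overlapped. At 21 d the mice had 13.8, 4.40 and 4.37 TPM, with a single mouse above the 0 h mice. The log2 fold change against 0 h lay between -0.44 at 3 h (SE 0.64) and 0.73 at 21 d (SE 0.60), with adjusted p of at least 0.848. With standard errors of 0.54 to 0.64, a 2-fold change at a given time lay within 2 standard errors. The highest mean, 7.94 TPM at 14 d, was 2.38 times the lowest, 3.34 TPM at 3 h, and all 8 neighbouring pairs in the order overlapped.

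RNA of the ligand was scarcer than that of the decoy at 0 h, and at about its level or above it from 24 h to 14 d. Protein was not measured, so these values do not give the ratio of the proteins. The ratio of Tnfsf11 to Tnfrsf11b in TPM, taken within each mouse, was 0.0419, 0.170 and 0.192 at 0 h, all well under equal levels. At 3 h it was 0.380, 0.740 and 0.316, at 6 h 0.799, 0.527 and 0.883, and at 12 h 0.386, 0.841 and 1.83. The 24 h mice had ratios of 2.51, 3.06 and 1.26, and the 3 d mice 1.29, 2.64 and 9.67, all above 1. The ratio was also above 1 in every mouse at 7 d, where it ran from 1.71 over a median of 2.61 to 3.52, and at 14 d, with 1.86, 1.33 and 1.66. The 95% intervals (exact Clopper-Pearson, counting error only) covered 1 in the 24 h mouse at 1.26 (0.779 to 2.05), the 3 d mouse at 1.29 (0.947 to 1.76) and the 14 d mouse at 1.33 (0.998 to 1.76). At 21 d, 2 of the 3 mice were again below 1, with 0.666, 1.43 and 0.654. The interval of the mouse at 0.654 was 0.399 to 1.05 and covered 1. Every mouse after amputation had a higher ratio than every mouse at 0 h, in all 8 comparisons.

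**Figure D2:**
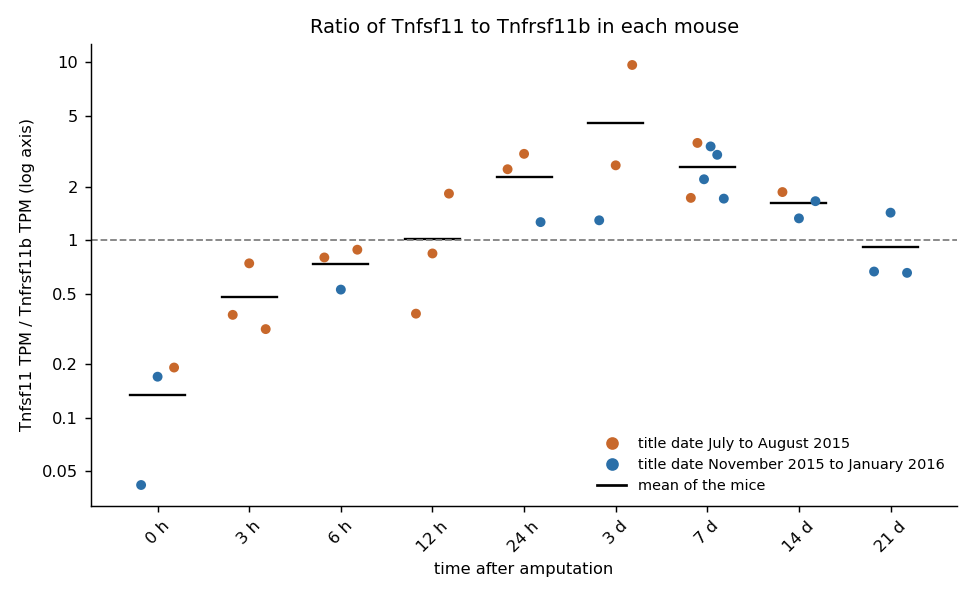
Ratio of Tnfsf11 TPM to Tnfrsf11b TPM (log axis) in each of 30 mice by time after amputation, with bars for the mean of the mice, colours for title dates and a dashed line at equal levels. All 3 mice at 0 h lie under 0.2 and all 12 mice at 24 h, 3 d and 7 d lie above 1.

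A permutation test of F on the log2 ratio (0.1 TPM added to each gene) over 30 mice gave p = 1e-05, the smallest that 100000 resamples can give, and the same value when mice were permuted within title dates. The log2 ratio was above that at 0 h by 1.86 at 3 h, 2.45 at 6 h, 2.66 at 12 h, 3.99 at 24 h, 4.57 at 3 d, 4.21 at 7 d, 3.58 at 14 d and 2.69 at 21 d. With 3 mice against 3, the two-sided exact permutation test cannot go below p = 0.1, and each of these 7 comparisons gave that value. At 7 d, with 6 mice against 3, the exact permutation p was 0.0238, also the smallest possible, and all 8 were 0.1 after Benjamini-Hochberg adjustment. Tnfsf11 is part of this ratio, so the ratio is no separate evidence of its rise. Within the earlier-dated mice the difference from 0 h was 3.69 at 24 h, 4.55 at 3 d and 3.54 at 7 d, and within the later-dated mice it was 3.58, 3.61 and 4.54. Low counts limit single values: the 0 h mouse with 3 Tnfsf11 counts had an interval of 0.00848 to 0.126. The 3 h mouse with 1 and 4 counts had one of 0.00641 to 3.19, which covers the 0 h mice. The mean at 3 d, 4.53 ± 4.50 (SD, n = 3), rests on the mouse at 9.67, whose interval was 5.52 to 18.3.

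Csf1, the survival and growth factor of the precursors, had its highest levels from 6 h to 3 d. It was at 12.7, 11.0 and 14.3 TPM at 0 h and at 16.8, 14.98 and 7.34 TPM at 3 h, where the mice lay on both sides of those at 0 h. At 6 h the level was 32.0, 21.4 and 35.5 TPM and at 12 h 22.2, 35.9 and 25.8 TPM. The 24 h mice had 32.8, 29.7 and 20.8 TPM and the 3 d mice 24.4, 29.9 and 30.1 TPM, so all 12 mice from 6 h to 3 d were above every 0 h mouse. At 7 d the mice ran from 9.90 over a median of 15.5 to 32.7 TPM, at 14 d they had 9.64, 23.7 and 21.9 TPM, and at 21 d 14.9, 12.2 and 9.25 TPM. These later times overlapped with 0 h.

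No single time point passed for Csf1 against 0 h in edgeR or DESeq2, although the F-test over the time course did, and 4 of the 8 comparisons had an unadjusted p under 0.05 in edgeR. The log2 fold change was 0.93 at 6 h (SE 0.30, adjusted p = 0.339), 0.99 at 12 h (SE 0.30, adjusted p = 0.317), 1.04 at 24 h (SE 0.30, adjusted p = 0.171) and 0.93 at 3 d (SE 0.30, adjusted p = 0.286). It was 0.04 at 3 h, 0.44 at 7 d, 0.39 at 14 d and -0.04 at 21 d. Fits restricted to the mice of 0 h and a single later time called the difference at 12 h (adjusted p = 0.0444) and at no other time. All mice at 12 h were earlier-dated, whereas 2 of the 3 mice at 0 h were later-dated. The 7 d mice split by title date, with 30.5 and 32.7 TPM in the earlier-dated pair and 9.90 to 15.7 TPM in the 4 later-dated mice, so that the difference from 0 h in log2(CPM + 1) was 0.85 in the first and 0.09 in the second. An alternative chosen after these values were seen took 7 d from the later-dated mice alone. In that fit Csf1 was called at 24 h (1.03, adjusted p = 0.0446). It also fell from 3 d to 7 d by 0.88 on the log2 scale (adjusted p = 0.0229). At 3 d 2 of the 3 mice were earlier-dated, so date and time cannot be told apart in this fall. In earlier-dated mice the mean was 30.0 TPM at 3 d and 31.6 TPM at 7 d. The single later-dated mouse at 3 d had 24.4 TPM, above all later-dated mice at 7 d. In the order of mean TPM, from 12.1 ± 2.80 at 21 d to 29.6 ± 7.31 at 6 h (SD, n = 3), all 8 neighbouring pairs overlapped.

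**Figure D3:**
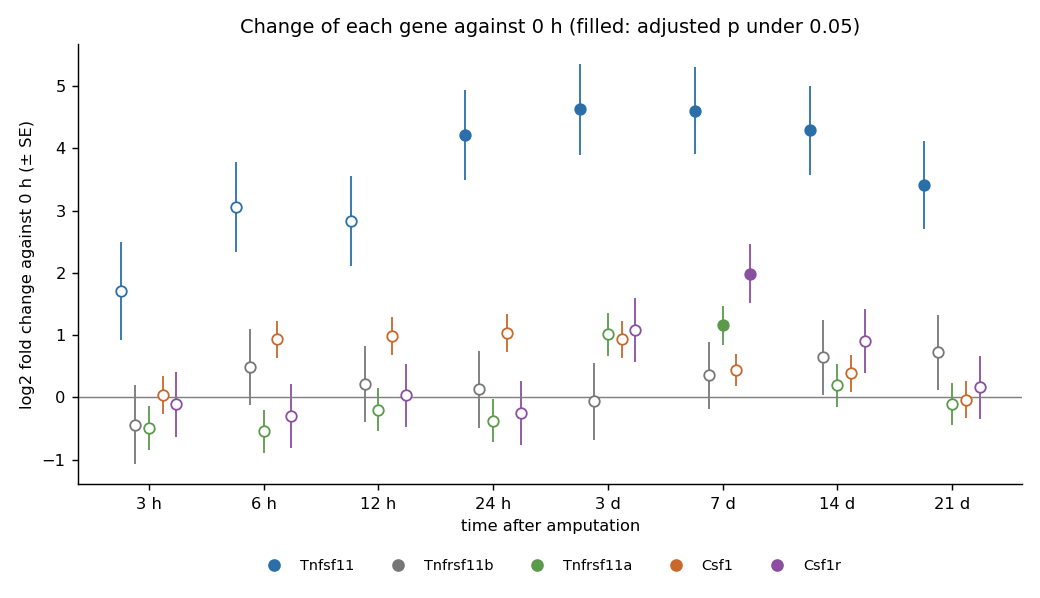
Log2 fold change against 0 h with its standard error for the 5 genes at 8 times, from the edgeR fit of all 30 mice, with filled points for an adjusted p under 0.05. Tnfsf11 is filled from 24 h to 21 d and the receptors at 7 d, whereas Csf1 sits near 1 from 6 h to 3 d with open points.

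RANK, the receptor on the precursors and on osteoclasts, was not called before 7 d. Tnfrsf11a was at 11.5, 16.5 and 22.9 TPM at 0 h, and from 3 h to 24 h the mice lay between 4.86 and 18.4 TPM, all below the highest mouse at 0 h. At 3 d it was at 23.0, 41.2 and 45.4 TPM, above every 0 h mouse in 3 of 3 mice. At 7 d the lowest mouse had 15.9, the median was 30.7 and the highest 74.6 TPM, with 5 of 6 mice above every mouse at 0 h. By 14 d (24.1, 15.4 and 19.5 TPM) and 21 d (13.3, 15.4 and 14.97 TPM) the groups overlapped again. The change passed at 7 d, with a log2 fold change of 1.16 (SE 0.31, adjusted p = 0.0417), and not at 3 d, with a 2.02-fold higher level (adjusted p = 0.350). The call at 7 d is close to the threshold and was lost without any one of the 0 h mice (adjusted p from 0.0641 to 0.306), the earlier-dated 7 d mice (0.0731 and 0.0559) or 1 mouse at 14 d (0.0512). The 2 earlier-dated mice at 7 d had 74.6 and 59.7 TPM and the 4 later-dated mice 15.9 to 33.1 TPM. With the later-dated mice alone at 7 d, the log2 fold change was 0.73 (adjusted p = 0.103). Mean levels ran from 11.0 ± 2.68 TPM at 3 h to 39.7 ± 22.5 TPM at 7 d (SD), and all 8 neighbouring pairs in this order overlapped.

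Csf1r, which marks monocytes and macrophages as well as osteoclast precursors, had a larger fold change at 7 d than RANK, a difference that was not tested. It was at 11.6, 11.6 and 15.7 TPM at 0 h, and between 5.65 and 18.0 TPM in the mice from 3 h to 24 h, on both sides of 0 h. At 3 d the level was 17.3, 30.7 and 41.2 TPM. At 7 d it ran from 18.4 over a median of 29.4 to 123.6 TPM, and at 14 d it was 22.2, 24.7 and 27.5 TPM. All 12 mice of these 3 times were above every mouse at 0 h, whereas at 21 d, with 17.8, 14.7 and 7.53 TPM, the groups overlapped. In the fit the log2 fold change at 7 d was 1.99 (SE 0.48, adjusted p = 0.0194), and the changes of 1.09 at 3 d (SE 0.51, adjusted p = 0.713) and 0.91 at 14 d (SE 0.51, adjusted p = 0.687) did not pass. A fit restricted to the mice at 0 h and 14 d called the latter (0.89, adjusted p = 0.0166). The call at 7 d was lost without any one of the 0 h mice (adjusted p from 0.0754 to 0.137).

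The 7 d mice also split by title date in Csf1r. The 2 earlier-dated mice were at 123.6 and 116.3 TPM and the 4 later-dated mice at 18.4 to 32.0 TPM, with no overlap between them. From 0 h of the same dates, the difference in log2(CPM + 1) was 2.73 in the earlier-dated and 1.06 in the later-dated mice. With the later-dated mice alone at 7 d, the log2 fold change was 1.02 (adjusted p = 0.0631). A test of whether the time course differed between dates, over the 6 times that hold both (21 mice), gave adjusted p = 0.131 for Csf1r, 0.116 for Csf1, 0.356 for Tnfrsf11a, 0.616 for Tnfrsf11b and 0.713 for Tnfsf11 in edgeR, where 120 of 13587 genes were called. Unadjusted, the p of this edgeR test was 0.00411 for Csf1r, 0.00306 for Csf1 and 0.0433 for Tnfrsf11a. The later-dated 7 d mice include all 3 left-foot digits, so foot and date overlap in these mice. In the order of mean TPM, Csf1r at 12 h (14.4 ± 3.06, SD, n = 3) and 14 d (24.8 ± 2.63) did not overlap, with an exact permutation p of 0.1, the smallest possible, and the other 7 neighbouring pairs did.

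None of the 5 genes was called between successive times in 35 tests by edgeR or by DESeq2, and 6 had an unadjusted p under 0.05 in edgeR. The lowest adjusted p among them were 0.176 for the fall of Tnfrsf11a from 7 d to 14 d (log2 fold change -0.96) and 0.267 for Csf1 from 3 h to 6 h (0.89). Of all genes tested, 0.16% were called from 3 h to 6 h, 0.0% from 6 h to 12 h, 0.0% from 12 h to 24 h, 0.0653% from 24 h to 3 d, 0.0145% from 3 d to 7 d, 0.435% from 7 d to 14 d and 0.0% from 14 d to 21 d. With the title date as a covariate, Tnfrsf11a rose from 24 h to 3 d by a log2 fold change of 1.43 (adjusted p = 0.0106) and fell from 7 d to 14 d by 0.90 on the log2 scale (adjusted p = 0.0313).

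Levels of the receptors were correlated across mice. Pearson's r of log2(CPM + 1) over 30 mice was 0.87 between Tnfrsf11a and Csf1r, and 0.69 after the mean of each time point was removed. Csf1r was also the closest of 10856 genes (mean of at least 5 CPM) to Tnfrsf11a. Between Tnfsf11 and Tnfrsf11b r was 0.40, and 0.60 within time points. Csf1 had an r of 0.51 with Tnfsf11, which became 0.75 within time points. These values are descriptions over mice that share time points and title dates, and carry no test.

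**Figure D4:**
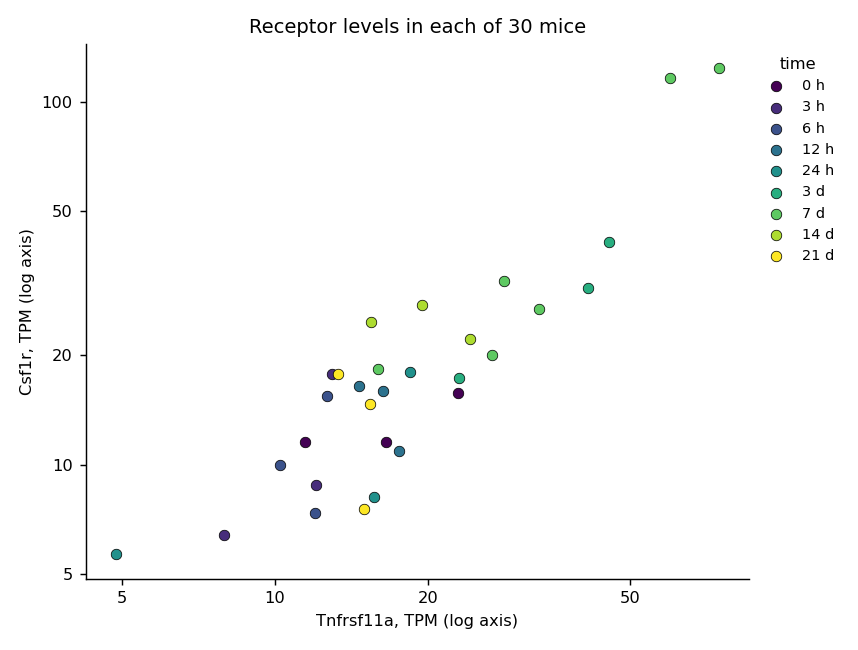
Csf1r TPM against Tnfrsf11a TPM (log axes) in each of 30 mice, coloured by time after amputation. The 2 earlier-dated mice at 7 d stand apart at the top, above 116 TPM in Csf1r, and the other mice form a band along which levels of both receptors increase together.

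The profiles most like each gene were searched the same way. For Tnfsf11 the 5 highest were Mmp13 (r = 0.91), a collagenase of bone and cartilage, Timp1 (0.89), an inhibitor of metalloproteinases, Slc39a14 (0.87), a zinc and iron transporter, Fzd1 (0.85), a Wnt receptor, and Slc16a3 (0.85), a lactate transporter. Within time points these were between 0.55 and 0.67. After Csf1r, the genes most like Tnfrsf11a were Nckap1l (0.86) and Itgb2 (0.84), both of haematopoietic cells, Gnptab (0.83), whose product takes part in tagging enzymes for the lysosome, and Gusb (0.83), which encodes a lysosomal enzyme. Csf1r was most like Arsb (0.91), a lysosomal sulfatase, then Slc37a2 (0.90), Lcp1 (0.90), Gpr137b (0.89) and Nckap1l (0.89). For Csf1 they were Stom (0.85), Mgp (0.82), which encodes matrix Gla protein, Serpina3n (0.81), Mmp3 (0.80), which encodes stromelysin, and Slco2a1 (0.79), a prostaglandin transporter. Tnfrsf11b had the lowest values, with Asap2 (0.70), Zfyve21 (0.66), Clmp (0.65), Snap23 (0.63) and Zcchc24 (0.63).

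Other ligands and receptors of the system were mostly not called. Among 8 tested of 10, 1 changed over the time course, beside 9.01% of all genes. It was Csf2rb, the shared beta chain of the receptors for GM-CSF, IL-3 and IL-5 (adjusted p = 0.0438). Csf2rb went from 3.08 ± 0.267 TPM at 0 h to 12.4 ± 4.93 TPM at 3 d (SD, n = 3). Il34, the second ligand of CSF1R, was at 10.9 TPM at 0 h and 4.83 TPM at 21 d (adjusted p = 0.946 over the time course). Lgr4, which can bind RANKL, stayed between 45.9 and 67.3 TPM in the means (adjusted p = 0.282). Tnfsf10, encoding TRAIL, which osteoprotegerin also binds, lay between 2.67 and 6.74 TPM (adjusted p = 0.206). Csf2 and Csf3 did not pass the filter on low counts.

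Of 27 tested genes of RANK signalling, its costimulatory pathway and related transcription factors, 7 changed over the time course, beside 9.01% of all genes. At 7 d against 0 h, 4 were higher and 1 was lower, beside 1.68% and 0.66% of all genes. The list's median log2 fold change there was 0.40, and that of all genes tested was -0.01. Nfatc1, the main transcription factor of osteoclast differentiation, rose from 18.8 ± 3.14 TPM at 0 h to 54.6 ± 18.0 TPM at 7 d (SD), a log2 fold change of 1.50 (SE 0.26, adjusted p = 0.00109). Spi1, which encodes PU.1, was higher by 3.61 on the same scale (SE 0.80, adjusted p = 0.0104), and Syk, a kinase of the costimulatory pathway, was 2.46-fold higher (adjusted p = 0.0133). Oscar, a costimulatory receptor of osteoclasts, was at 0.433 ± 0.309 TPM at 0 h, listed at 0 in all 3 mice at 24 h, and at 8.63 ± 5.60 TPM at 7 d (adjusted p = 0.0379 against 0 h). In contrast, Fos, which encodes c-Fos, fell from 612 ± 200.2 TPM at 0 h to 64.7 ± 19.6 TPM at 7 d, by 3.27 on the log2 scale (SE 0.38, adjusted p = 6.69e-06). The list's summed level was already lower at 3 h, with 776.6 to 909.6 TPM against 1159 to 1479 TPM at 0 h. Fos, at a mean of 612 TPM, was a large part of the sum at 0 h. The list's median log2 fold change at 3 h was 0.04, and that of all genes tested was -0.01, so the sum does not describe the list as a whole. At 3 h 1 gene of the list was called lower than at 0 h, where 16 of 13793 genes were. Traf6, the adaptor of RANK, was between 27.3 and 38.2 TPM in the means (adjusted p = 0.424 over the time course). The remaining changed genes were Fcer1g (adjusted p = 0.00625) and Nfkbia (0.0276).

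Of 11 osteoclast markers tested, 7 changed over the time course, where 9.01% of all genes did. Against 0 h, 4 were higher at 3 d, 7 at 7 d, 5 at 14 d and 3 at 21 d, beside 0.486%, 1.68%, 1.48% and 1.73% of all genes. Clcn7, Ostm1, Car2 and Ocstamp were the 4 not called over the time course (adjusted p from 0.431 to 0.839). From 3 d to 7 d 2 markers rose, Ctsk and Itgb3, where 2 of all 13793 genes tested (0.0145%) were called. The median log2 fold change of the 11 markers against 0 h was -0.02 at 24 h, 1.23 at 3 d and 2.94 at 7 d. Ctsk, encoding the collagen-degrading cathepsin K, rose from 54.3 ± 10.7 TPM at 0 h to 421 ± 112.3 at 3 d and 1425 ± 578 at 7 d (SD). Its log2 fold change was 2.88 at 3 d (SE 0.36, adjusted p = 3.4e-05) and 4.67 at 7 d (SE 0.37, adjusted p = 7.62e-09). Mmp9, encoding gelatinase B, and Acp5, encoding tartrate-resistant acid phosphatase, were higher at 7 d by 6.51 (SE 0.61, adjusted p = 1.43e-07) and 4.23 (SE 0.58, adjusted p = 4.68e-05). The integrin gene Itgb3 and the proton pump subunit gene Atp6v0d2 were higher by 2.94 (adjusted p = 6.39e-06) and 5.32 (adjusted p = 4.68e-05). Summed over 12 markers, the level ran from 230.7 to 338.8 TPM at 0 h, from 194.4 to 436.7 at 24 h, when Tnfsf11 was already called, from 878 to 1301 at 3 d and from 1719 to 5348 at 7 d.

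**Figure D5:**
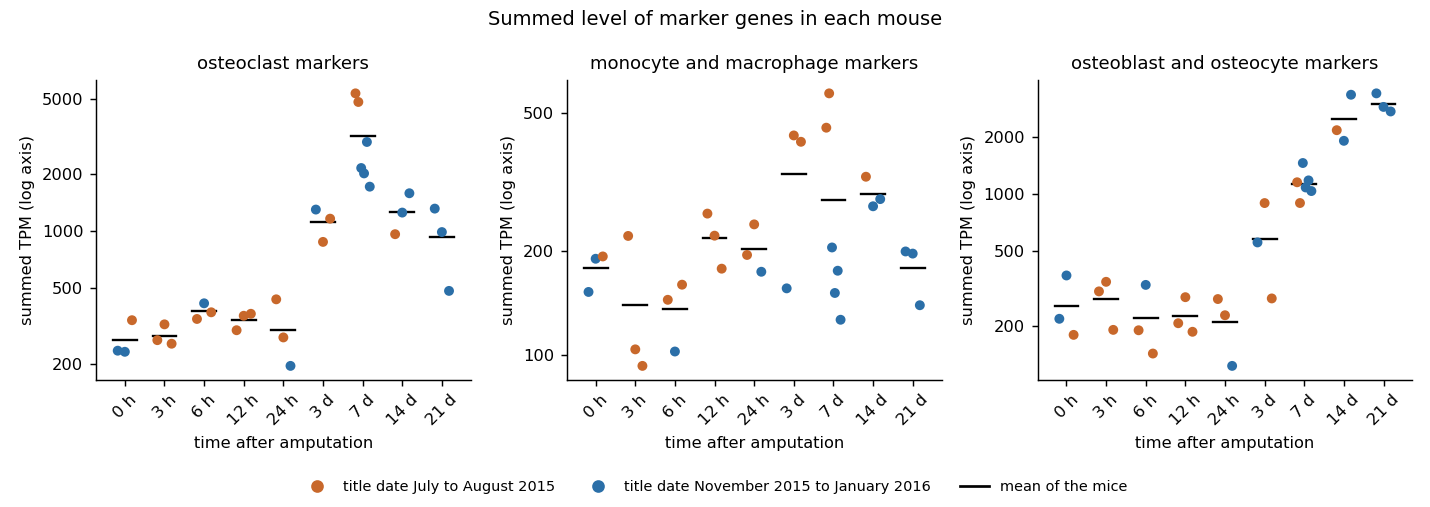
Summed TPM (log axis) of markers of osteoclasts (12 genes), of monocytes and macrophages (10 genes) and of osteoblasts and osteocytes (8 genes) in each mouse by time, with bars for means and colours for title dates. Osteoclast markers at 7 d were at 1719 TPM or more in each mouse, and osteoblast markers were highest at 21 d.

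Among the 7 d mice, marker sums and receptor levels were high in the same animals, and the part of the markers in the receptor changes was not tested. At 7 d the 2 earlier-dated mice, which had the highest Csf1r and Tnfrsf11a, also had the highest summed osteoclast markers, 4816 and 5348 TPM against 1719 to 2961 TPM in the later-dated mice. They had the highest summed markers of monocytes and macrophages as well, 452.1 and 567.8 TPM against 126.5 to 204.3 TPM, where the 0 h mice had 152.1 to 192.5 TPM. At other times the osteoclast sums and the receptors differed. At 3 d the later-dated mouse had the highest osteoclast sum of its time, 1301 TPM, with the lowest Tnfrsf11a (23.0 TPM) and Csf1r (17.3 TPM). The monocyte and macrophage sum of this mouse, 155.8 TPM, was also the lowest of its time, against 411.8 and 429.5 TPM. At 21 d the osteoclast sums, 483.9 to 1316 TPM, were above every 0 h mouse, while the receptors had log2 fold changes of -0.11 (Tnfrsf11a) and 0.16 (Csf1r). The monocyte and macrophage sums at 21 d, 139.3 to 198.9 TPM, overlapped those at 0 h. Of these 10 monocyte and macrophage markers 2 changed over the time course, beside 9.01% of all genes, Mpeg1 (adjusted p = 0.0473) and Cd14 (0.0481), and none was called at 7 d by edgeR, where 2 had an unadjusted p under 0.05. No gene of that list was at 0 in its mean at 0 h or 7 d. Of 5 neutrophil markers, 2 changed over the time course, S100a9 and S100a8, beside 9.01% of all genes. Both were higher at 7 d, where 1.68% of all genes were. Cxcr2 (adjusted p = 0.970), Retnlg (0.368) and Ngp (0.106) were not called by the F-test over the time course. The summed level of the list was 15.2 to 25.2 TPM at 0 h and 370.1 to 633 TPM at 7 d. Which cells made these RNAs was not tested.

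Genes known to regulate RANKL or osteoprotegerin changed in 9 of 20 cases, beside 9.01% of all genes. The cytokine genes Il6 and Lif had their highest means at 24 h. Il6 went from 0 to 1 count per mouse at 0 h to 89.5 ± 27.9 TPM at 24 h (SD, n = 3, adjusted p = 0.000149), and Lif from 1.27 ± 0.314 to 82.4 ± 43.3 TPM (adjusted p = 9.47e-07). At 14 d their means were 1.05 and 3.14 TPM, when that of Tnfsf11 was 12.4 TPM. Later in the course, Pth1r, the receptor of parathyroid hormone, rose by a log2 fold change of 1.82 at 14 d (SE 0.35, adjusted p = 0.00265), and Mmp14, a membrane metalloproteinase that can shed RANKL, by 1.88 at 21 d (SE 0.22, adjusted p = 6.27e-06). Sost, which encodes the osteocyte product sclerostin, lay between 1.02 and 4.06 TPM in the means (adjusted p = 0.903 over the time course). The list's median log2 fold change was 0.31 at 24 h and 0.61 at 21 d, where all genes tested had medians of 0.01 and -0.00.

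Osteoblast-lineage cells and fibroblasts, which can make RANKL and osteoprotegerin, were followed by their markers. Of 8 osteoblast and osteocyte markers, 6 changed over the time course, beside 9.01% of all genes, with Ibsp, Sp7, Alpl and Runx2 leading by p, and their sum was 179.8 to 371 TPM at 0 h and 2744 to 3422 TPM at 21 d. Sp7, the osteoblast transcription factor osterix, was higher at 14 d by a log2 fold change of 2.71 (SE 0.43, adjusted p = 0.000414). Of 6 fibroblast markers, Col1a1, Col1a2, Col3a1 and Lum changed, and all 4 were higher at 21 d. At 3 d, when the mean of Tnfsf11 was highest, the osteoblast and osteocyte sum was 280.4, 555.2 and 897.5 TPM, above every 0 h mouse in 2 of 3 mice, with no single marker of either list called where 0.486% of all genes were called higher. None of 6 keratinocyte markers was called by edgeR (3 had an unadjusted p under 0.05), nor was the 1 T and B cell marker tested. The summed keratinocyte markers were nevertheless lower in every mouse from 6 h on (24961 to 55596 TPM) than in every mouse at 0 h (57548 to 62516 TPM), the times at which Tnfsf11 was above every 0 h mouse, and the part of this shift in the level of Tnfsf11 was not tested. Of the remaining lists, 2 of 5 endothelial markers (Vwf and Cdh5) and 2 of 3 erythroid genes tested (Hbb-bs and Alas2) changed, beside 9.01% of all genes, with Hbb-bs lower at 7 d. Summed erythroid markers ran from 68.2 to 619.9 TPM at 0 h and from 15.1 to 25.9 TPM at 21 d.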

How the data were processed

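RNA of 30 digits was measured by poly-A RNA-seq (LM-Seq, single-end). Reads were aligned by the authors with Bowtie against the mouse annotation of Ensembl v75, and RSEM 1.2.3 gave them expected counts and TPM for each gene. The submitters' processing notes name mm10. Deposited expected counts are not normalized, and deposited TPM are scaled within each library. Whether strand was used is not given in the sources used here, so overlapping antisense RNA cannot be told apart.

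Expected counts were rounded and tested in edgeR 4.0.16 (R 4.3.3) with TMM and quasi-likelihood tests, after edgeR's own filter on low counts (grouped by time point) had left 13793 genes. Benjamini-Hochberg adjusted p had a threshold of 0.05, with all 30 mice in a single fit without covariates. The reference of every comparison with 0 h is the same 3 mice. Contrasts against 0 h thus share their controls. The ratio used TPM plus 0.1. Exact and permutation tests were two-sided (F one-sided by construction), in Python 3.11.15 with scipy 1.17.1. Alternatives were DESeq2 1.42.0 size factors and tests, other filters, the title date as a covariate, removal of left-foot mice, fits of the 2 times alone, other pseudocounts, each mouse left out in turn and, added after seeing the data, 7 d from later-dated mice alone.

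On simulated data (13627 genes, 200 changed at 7 d) the F-test recovered 37% of 2-fold and 74% of 4-fold changes, with 4.31% of calls false. No pair of mice of a time point looked like a repeated library (chi-square per degree of freedom 9.83 to 94.7 over 39 pairs). The 0 h and 12 h libraries with the same code in their titles had a value of 23.7. Their times differ, so this value cannot show whether they came from the same mouse. They were counted as separate mice, since the authors report 3 mice at each of these times. Some animal codes recur at other times under other title dates, and no source says that title numbers pair mice across times. The genes and lists were chosen with earlier results of these data known. Named genes are the 5 genes, Il34, Lgr4, Tnfsf10, Nfatc1, Traf6, Ctsk, Acp5 and Sost, up to 4 genes per list with the smallest F-test p among those called, and the 5 genes of highest r. Spi1, Fcer1g, Nfkbia, Clcn7, Ostm1, Car2, Ocstamp, Cxcr2, Retnlg and Ngp were named after their values were seen. Adgre1 was found as Emr1 and Trac had no row. Intervals leave out PCR duplication, and p-values measure the spread between mice.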

Additional observations from a re-analysis of the deposited data

Results flagged for a closer look

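At 7 d, the highest of the 6 mice in Tnfrsf11b stood apart from the rest. It had 16.9 TPM, and the gap to the next mouse was 0.715 of the whole range in TPM and 0.660 in CPM, both above the limit of Dixon's test for 6 values. This mouse was an earlier-dated one and had 76 counts for the gene. Chance alone marks about 1 in 20 groups, and 11 measures of the 5 genes and the ratio were examined. Without this mouse the log2 fold change of Tnfrsf11b at 7 d was -0.034, against 0.36 with it, and neither was called.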

How the results depend on the processing

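In the comparison over the 9 time points, each of the 5 genes kept its side of the threshold in every alternative run. With each mouse left out in turn, the adjusted p ran from 0.000159 to 0.00156 for Tnfsf11, 4.73e-05 to 0.000802 for Tnfrsf11a, 0.688 to 0.921 for Tnfrsf11b, 0.00774 to 0.0399 for Csf1 and 0.000414 to 0.00422 for Csf1r, and the permutation p of the ratio from 1e-05 to 4e-05. Against 0 h, leaving out mice gave log2 fold changes of 3.73 to 4.66 for Tnfsf11 at 24 h, 4.11 to 5.10 at 3 d, 4.16 to 5.09 at 7 d, 3.67 to 4.75 at 14 d and 2.93 to 3.86 at 21 d, 0.95 to 1.41 for Tnfrsf11a at 7 d and 1.65 to 2.15 for Csf1r at 7 d, with calls lost as the text gives them. A fit of only the mice at 0 h and 7 d lost the calls of Tnfrsf11a (1.17, adjusted p = 0.233) and Csf1r (2.006, adjusted p = 0.163), and it holds fewer mice. Using only later-dated mice at 7 d also lost them (0.73 and 1.02) and turned Tnfrsf11b at 7 d to -0.0098. The date as a covariate gave 2 calls between successive times in place of 0, and later-dated mice alone at 7 d gave 1. The covariate also turned the sign of uncalled changes: Csf1 to -0.15 at 3 h and 0.058 at 21 d, Csf1r to -0.63 at 12 h and Tnfrsf11a to 0.15 at 21 d. The cause was not tested. Leaving out mice reversed other uncalled changes, which ran from -0.15 to 0.23 (Csf1, 3 h), -0.16 to 0.078 (Csf1, 21 d), -0.61 to 0.11 (Csf1r, 3 h), -0.081 to 0.23 (Csf1r, 12 h), -0.14 to 0.44 (Csf1r, 21 d), -0.40 to 0.037 (Tnfrsf11a, 12 h), -0.00055 to 0.44 (Tnfrsf11a, 14 d), -0.32 to 0.12 (Tnfrsf11a, 21 d), -0.011 to 0.59 (Tnfrsf11b, 12 h), -0.10 to 0.44 (24 h), -0.35 to 0.22 (3 d), -0.034 to 0.49 (7 d) and -0.10 to 1.02 (21 d). The fold changes of Tnfsf11 rest on 17 counts over the 3 mice at 0 h. No paired analysis was made, because the replicate numbers follow accession order and no source says that recurring animal codes mark the same mouse.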
